A study of Mus musculus with 6 samples.

Results

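*Ttn* and *Ahnak*, which encode giant proteins, were followed in regulatory T (Treg) cells sufficient or deficient in the O-GlcNAc transferase OGT, beside 8 other genes with very long transcripts: *Macf1*, *Dst*, *Syne1*, *Syne2*, *Utrn*, *Huwe1*, *Birc6* and *Herc1*. These are 10 of the 24420 gene symbols in the deposited table, taken by symbol, and the question was whether *Ttn* and *Ahnak* fell more than other giant genes. *Ttn* and *Ahnak* were chosen by their lower counts in the very comparison described here, so their values are a description and support no test. The 8 long controls were chosen for the length of their transcripts, but also with earlier results of these data known.

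The data are RNA sequencing of 6 samples of YFP+ Treg cells sorted from female C57BL/6 mice. Neither the labels nor the paper's methods state that each sample came from 1 mouse, which is assumed here. The paper's methods for this sequencing name no tissue. The 3 OGT-sufficient mice carried Foxp3YFP-Cre/wt and Ogtwt/fl, and the 3 OGT-deficient mice carried Foxp3YFP-Cre/wt and Ogtfl/fl, so that both groups carried the Cre and at least 1 floxed *Ogt* allele. The Cre is expressed from the *Foxp3* locus, which lies on the X chromosome, and YFP therefore labels those Treg cells of a heterozygous female in which Cre is active, while the other Treg cells of the same mouse keep OGT. By the methods, mice such as these were 6 to 12 weeks old where nothing else was stated. The labels do not tell on which X chromosome the floxed allele of the Ogtwt/fl mice lies. The cells were taken with CD4 beads and then sorted for YFP. In RNA from a whole sorted sample, fewer cells of a type and less RNA per cell cannot be told apart.

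OGT adds N-acetylglucosamine to serine and threonine residues of nuclear and cytoplasmic proteins, transcription regulators among them. Titin, the product of *Ttn*, is the elastic filament that spans the sarcomere of striated muscle, and lymphocytes are known to express the gene at low levels. AHNAK is a scaffold protein of repeated units that lies at the plasma membrane and in the cytoplasm, binds annexin 2 and S100A10, and has been linked to calcium entry in T cells. Among the controls, *Macf1* and *Dst* encode spectraplakins that join actin filaments to microtubules, *Syne1* and *Syne2* encode nesprins that tie the nucleus to the cytoskeleton, and *Utrn* encodes utrophin, the relative of dystrophin. *Huwe1*, *Birc6* and *Herc1* encode giant enzymes of the ubiquitin system.

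Levels are given as CPM, counts relative to a library size scaled by edgeR's TMM method, and as mean ± SD over n = 3 mice. Fold changes are of OGT-deficient over OGT-sufficient mice, from edgeR's quasi-likelihood fit over the 10949 genes left by edgeR's filter on low counts (minimum 10), with p-values adjusted over all of them by the Benjamini-Hochberg method. All 10 genes passed the filter, with at least 137 counts in every sample. Total counts were between 3375454 and 4103552 per sample, of which the ribosomal RNA gene *Rn45s* took 24.2% to 37.1%. OGT-sufficient replicate 3 stood apart from the other libraries: it had counts for 18346 genes against 14412 to 15197 elsewhere, and for 302 of 1097 olfactory receptor genes against 12 to 55. The log2 fold changes of the 10 genes and the medians of gene lists are therefore given with and without it, and the values of other genes also without it where it moved them by over 1.5 times or turned their direction. The targeted gene *Ogt* was lower in each OGT-deficient mouse than in any OGT-sufficient mouse, with 562, 632 and 957 counts against 327, 266 and 368. Its log2 fold change was -1.21 (-0.94 without OGT-sufficient replicate 3). In edgeR's quasi-likelihood test its adjusted p was 0.191, above an FDR of 0.1. Values of single samples are given in the order of replicates 1, 2 and 3, those of OGT-sufficient mice before those of OGT-deficient mice.

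*Ttn* lies on the minus strand of chromosome 2 at chr2:76703980-76982547 (GRCm38, the mm10 build), and its longest annotated transcript has 347 exons and 106.8 kb. In the OGT-sufficient mice, replicates 1 to 3 in turn, 341, 403 and 418 counts were found, and the OGT-deficient mice had 143, 137 and 150. The 3 OGT-deficient mice were close to each other, and all lay far below the lowest OGT-sufficient mouse. The OGT-sufficient mean was 103 ± 10.5 CPM (SD, n = 3) and the OGT-deficient mean 36.8 ± 2.32 CPM (SD, n = 3), which is 2.79-fold lower, and the fitted log2 fold change was -1.48 ± 0.13 (standard error). Without OGT-sufficient replicate 3 the log2 fold change was -1.42. Its adjusted p, the lowest of all genes tested and known when the gene was chosen, was 0.0129 in edgeR's quasi-likelihood test, and it ranged from 9.5e-14 to 0.260 over 18 alternative settings, of which 13 gave a value under 0.1. Leaving out single mice moved the log2 fold change between -1.53 and -1.40, but the adjusted p was 0.260 without OGT-deficient replicate 2 and 0.123 without OGT-deficient replicate 3. An antisense gene, *Gm13938*, shares 453 exon bases with *Ttn* and is not a row of the table.

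*Ahnak* lies on the plus strand of chromosome 19 at chr19:8989284-9076914, and its longest transcript has 18.1 kb in 5 exons. In the OGT-sufficient mice, replicates 1 to 3 in turn, 2901, 3544 and 2656 counts were found, and the OGT-deficient mice had 1638, 1309 and 1517. As for *Ttn*, the groups did not overlap. Mean levels were 806 ± 131 CPM (SD, n = 3, OGT-sufficient) and 382 ± 47.0 CPM (SD, n = 3, OGT-deficient), 2.11-fold lower, and the fitted log2 fold change was -1.08 ± 0.15 (standard error). Here OGT-sufficient replicate 3 was the lowest of its group, and without it the log2 fold change was -1.16. In edgeR's quasi-likelihood test its adjusted p was 0.159, from the 4th lowest p of all genes tested, and so above an FDR of 0.1. It was 0.0646 without OGT-sufficient replicate 3, and it ranged from 1.1e-05 to 0.715 over the 18 alternative settings, of which 5 gave a value under 0.1.

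The 8 long controls lay closer to 0 than *Ttn* and *Ahnak*. Their log2 fold changes lay between -0.41 for *Herc1* and -0.01 for *Syne2*, with a median of -0.27, beside a median of -0.017 over all genes tested. All 8 were negative, as were 52.7% of all genes tested. Of the tested genes outside the 10 with a longest transcript of 12 kb or more, 71.3% were negative. None of the 8 controls passed a test: their adjusted p-values in edgeR's quasi-likelihood test were between 0.753 and 0.993. Without OGT-sufficient replicate 3 the median of the controls was -0.06, 5 of the 8 remained negative, and the median over all genes tested was 0.0029. Set against the median of the controls, *Ttn* differed by -1.21 and *Ahnak* by -0.80 on the log2 scale, and without OGT-sufficient replicate 3 by -1.36 and -1.10. These differences carry no test, since *Ttn* and *Ahnak* were chosen on one of their terms.

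**Figure D1:**
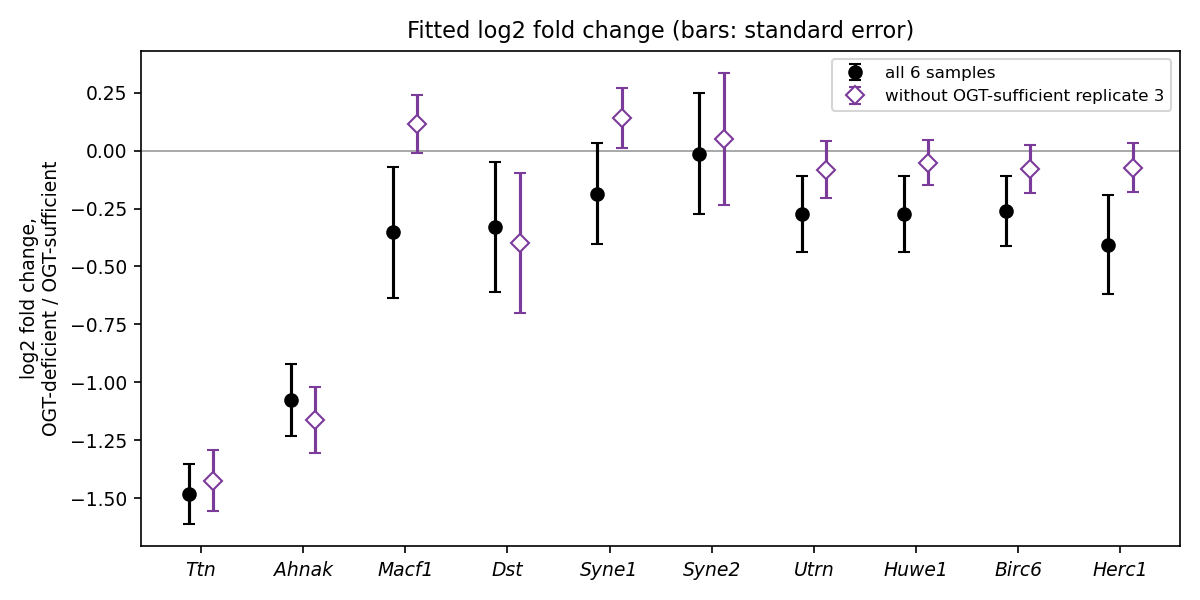
Fitted log2 fold change (OGT-deficient over OGT-sufficient) of the 10 giant genes; filled circles use all 6 samples, open diamonds leave out OGT-sufficient replicate 3, and bars are standard errors. *Ttn* goes from -1.48 to -1.42 and *Ahnak* from -1.08 to -1.16, whereas the diamonds of the controls other than *Dst* lie between -0.08 and 0.14.

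Of the 10 genes, 1 (*Ttn*) passed an FDR of 0.1, where 0.0274% of all genes tested did, in either direction. At an unadjusted p under 0.05, 2 of the 10 were lower (*Ttn* and *Ahnak*), where 4.01% of all genes tested were, and 0 of the 10 were higher, where 3.09% were. In 3 of the 10, *Ttn*, *Ahnak* and *Huwe1*, the highest OGT-deficient sample was below the lowest OGT-sufficient one, as in 7.48% of all genes tested. Since *Ttn* and *Ahnak* were chosen from this comparison, nothing is read from these counts about them. Of the 8 controls, 0 passed at an unadjusted p under 0.05 in either direction and 1, *Huwe1*, had groups that did not overlap.

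Each of the controls was measured at 182 counts or more in every sample. *Macf1* (chr4:123349633-123684360, longest transcript 23.5 kb) had 5476, 4748 and 11074 counts in OGT-sufficient mice against 6302, 5436 and 5456 in OGT-deficient mice. Its log2 fold change of -0.35 ± 0.28 (standard error) rested on the 11074 counts of OGT-sufficient replicate 3, which was 2.13 times the mean of the other OGT-sufficient mice in CPM, and was 0.12 without that library. Its relative *Dst* (chr1:33908225-34308661, 23.3 kb) had 1108, 746 and 804 counts against 418, 803 and 965, with -0.33 ± 0.28 (standard error) on the log2 scale, and -0.40 without OGT-sufficient replicate 3. The groups overlapped widely, and OGT-deficient replicate 1 alone was low.

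The nesprin genes were measured at lower levels. *Syne1* (chr10:5020917-5551482, 27.9 kb), the longest of the controls, had 477, 404 and 780 counts against 548, 466 and 493. Its log2 fold change was -0.19 (standard error 0.22), and 0.14 without OGT-sufficient replicate 3. *Syne2* (chr12:75818134-76110926, 21.7 kb) had 332, 205 and 306 counts against 182, 321 and 360, with a log2 fold change of -0.01 ± 0.26 (standard error), and 0.05 without that library. As for *Dst*, the lowest *Syne2* level of all 6 samples was that of OGT-deficient replicate 1, the library with the lowest summed level of 10 macrophage markers (1289 CPM, against 1705 to 5296 CPM elsewhere). With the macrophage marker level as a covariate, chosen after seeing the data, the log2 fold changes of *Dst* and *Syne2* were -0.51 and -0.14.

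*Utrn* (chr10:12382188-12869365, 12.4 kb) had 3326, 2978 and 4478 counts against 3426, 2979 and 2823. Its log2 fold change was -0.27 (standard error 0.16) with all samples and -0.08 without OGT-sufficient replicate 3. The genes of the ubiquitin system had almost the same pattern. *Huwe1* (chrX:151800807-151935417, 14.6 kb) had 2016, 2092 and 3097 counts against 2060, 2104 and 1991, or 536.5, 561.2 and 811.9 CPM against 529.2, 530.1 and 519.6 CPM. Although its groups did not overlap in CPM, the lowest OGT-sufficient and the highest OGT-deficient level were close to each other, and the log2 fold change of -0.27 ± 0.16 (standard error) became -0.05 without OGT-sufficient replicate 3. *Birc6* (chr17:74528295-74703356, 15.8 kb) had 2212, 2328 and 3186 counts against 2223, 2126 and 2318, with log2 fold changes of -0.26 (standard error 0.15), and -0.08 without that library. *Herc1* (chr9:66350450-66508775, 15.2 kb) had 1118, 1016 and 1904 counts against 1006, 1031 and 1107, with log2 fold changes of -0.41 (standard error 0.21), and -0.07 without it. It shares 317 exon bases with *Fbxl22* on the other strand, and reads there cannot be told apart without strand.

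Per length of transcript, the 10 genes spanned a wide range of levels. In OGT-sufficient Treg cells *Macf1* and *Utrn* were highest, at 79.9 ± 38.0 and 76.9 ± 15.9 CPM per kb of the longest transcript (SD, n = 3), and their ranges overlapped. *Ahnak* followed at 44.6 ± 7.22 CPM per kb, with a range that overlapped those of *Huwe1* and *Birc6* at 43.7 ± 10.5 and 43.3 ± 8.45 CPM per kb. *Herc1* at 23.5 ± 8.20, *Dst* at 10.1 ± 2.23 and *Syne1* at 5.25 ± 1.83 CPM per kb each lay apart from the gene above them, whereas *Syne2* at 3.43 ± 0.801 CPM per kb overlapped *Syne1*. *Ttn* was the lowest, at 0.962 ± 0.0981 CPM per kb, a value that divides by the longest transcript of the 10. The counts hold no position along a transcript, so which part of *Ttn* they came from is not known. In OGT-deficient Treg cells *Ahnak*, at 21.1 ± 2.60 CPM per kb, lay below *Birc6* and *Huwe1*, at 36.2 CPM per kb (34.0 to 38.4 in single mice) and 36.1 ± 0.399 CPM per kb, and overlapped *Herc1* at 17.8 ± 1.14 CPM per kb. There *Utrn* at 63.7 ± 6.39 and *Macf1* at 62.6 ± 5.58 CPM per kb overlapped at the top, *Dst* at 8.04 ± 3.15, *Syne1* at 4.62 ± 0.419 and *Syne2* at 3.40 ± 1.12 CPM per kb overlapped each the next, and *Ttn* was again the lowest at 0.344 ± 0.0217 CPM per kb.

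**Figure D2:**
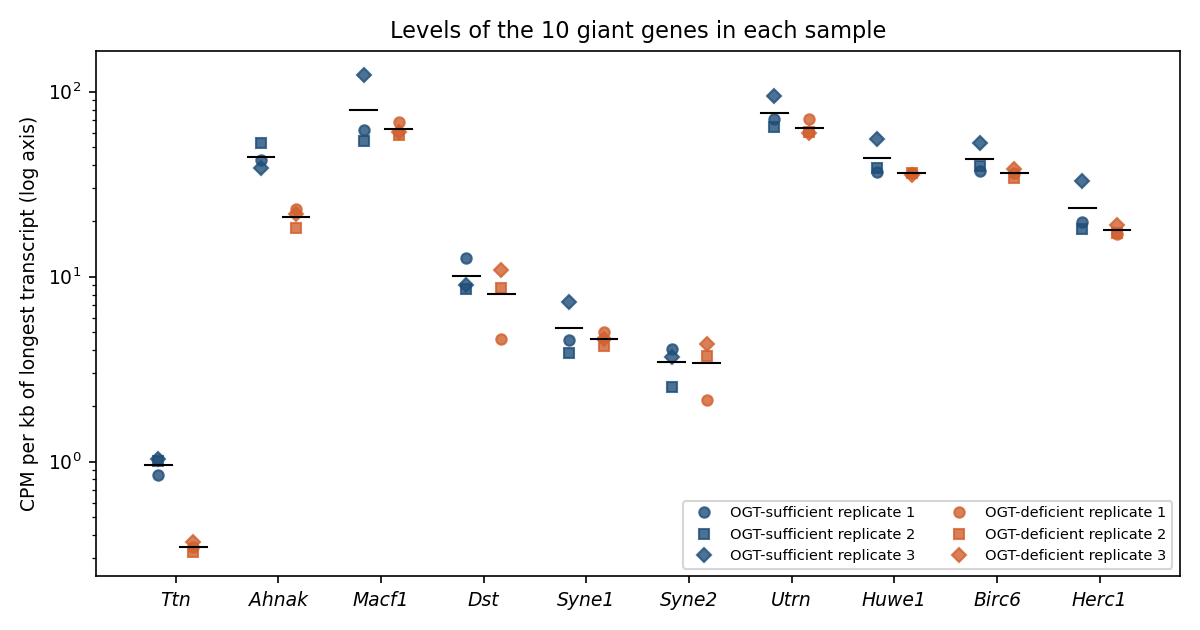
Level of each of the 10 giant genes, as CPM per kb of the longest annotated transcript on a log axis; each point is 1 sample, and black bars are the means of n = 3. The 3 OGT-deficient points lie well below the OGT-sufficient ones for *Ttn* and *Ahnak*, and OGT-sufficient replicate 3 (blue diamonds) is the highest of the 6 samples in 6 of the 8 controls.

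A comparison within each sample needs no scaling between libraries. For every 1000 counts of the 8 controls together, *Ttn* had 21.2, 27.8 and 16.3 counts in the OGT-sufficient mice and 8.85, 8.97 and 9.67 in the OGT-deficient mice. The groups were apart, and the mean was 2.38-fold lower in OGT-deficient Treg cells (21.8 ± 5.74 against 9.16 ± 0.443, SD, n = 3 each). On the same measure *Ahnak* had 181, 244 and 104 counts against 101, 85.7 and 97.8, a 1.85-fold lower mean (176 ± 70.4 against 95.0 ± 8.17, SD, n = 3 each). For *Ahnak* the groups were barely apart, and OGT-sufficient replicate 3 had both its group's lowest *Ahnak* count and the highest sum of the controls, 25629 counts against 14517 to 16165 elsewhere. The sum weighs each control by its counts, with *Macf1* the largest in every sample. *Macf1* alone gave 11074 of the 25629 counts of that library. Without that library the means were 2.67-fold lower for *Ttn* and 2.24-fold lower for *Ahnak*.

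**Figure D3:**
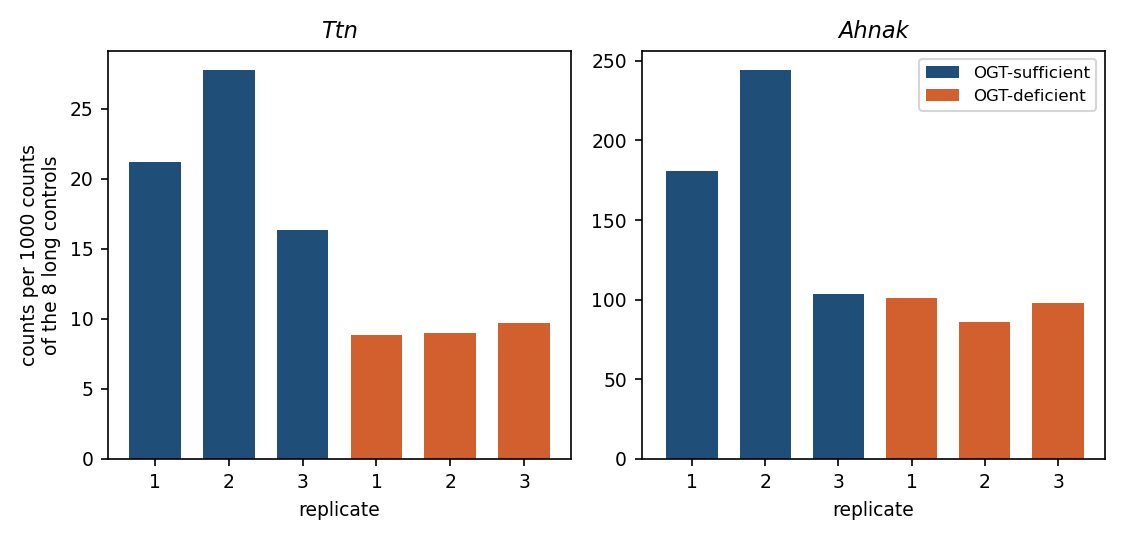
Counts of *Ttn* (left) and *Ahnak* (right) per 1000 summed counts of the 8 long controls, 1 bar for each sample, blue for OGT-sufficient and orange for OGT-deficient. All orange bars of *Ttn* lie between 8.85 and 9.67, under the lowest blue bar at 16.3, whereas for *Ahnak* the blue bar of replicate 3, at 104, is level with the orange bar of replicate 1, at 101.

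OGT-sufficient replicate 3 was shifted toward long transcripts as a whole. In that library the median deviation from the mean of the 6 samples, on the log2 scale, went from -0.34 for the 515 tested genes with transcripts under 1 kb to 0.32 for the 118 with 12 kb or more, and it was 0.47 for the 8 controls. In the other 5 samples the median for 12 kb or more lay between -0.12 and -0.03. In OGT-sufficient replicate 3, *Macf1*, *Herc1*, *Syne1*, *Huwe1*, *Utrn* and *Birc6* were between 1.38 and 2.13 times the mean of the other OGT-sufficient mice in CPM. *Ttn* was 1.10 times and *Ahnak* 0.808 times that mean, and so were near the remaining controls, *Syne2* at 1.12 times and *Dst* at 0.852 times.

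**Figure D4:**
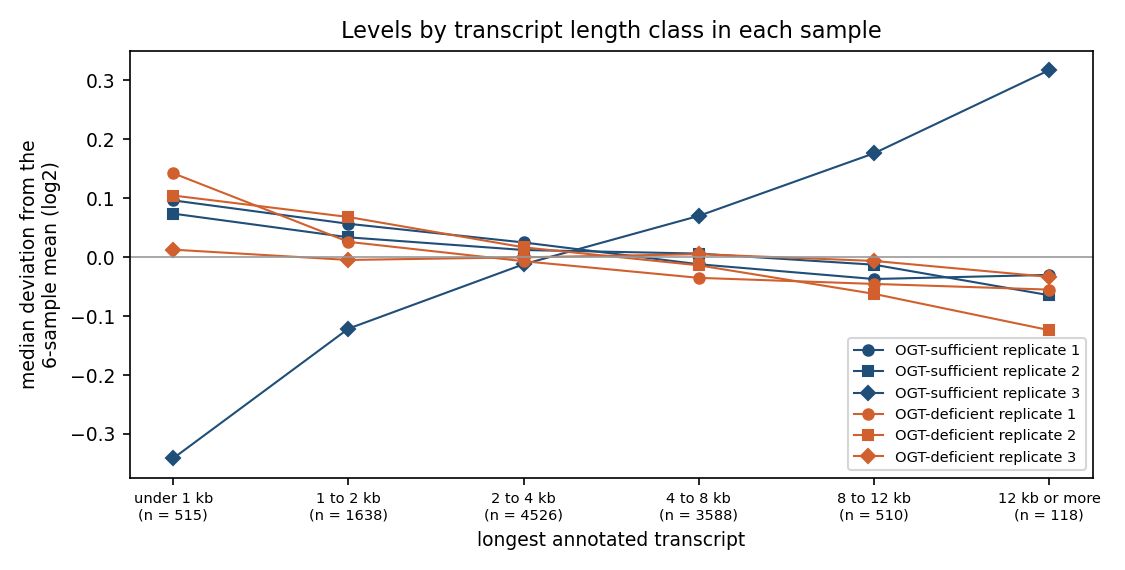
Median deviation of the log2 level from the mean of the 6 samples, by class of longest annotated transcript, with 1 line for each sample and the number of genes under each class. OGT-sufficient replicate 3 (blue diamonds) rises from -0.34 under 1 kb to 0.32 at 12 kb or more, whereas the other lines lie between -0.12 and 0.14.

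Long transcripts leaned lower in OGT-deficient Treg cells, by an amount that followed this library. The median log2 fold change was 0.13 for genes under 1 kb and -0.15 for those with 12 kb or more, and without OGT-sufficient replicate 3 these medians were 0.018 and -0.0080. Leaving the 10 genes out, 10 of 108 tested genes with 12 kb or more were lower and 1 was higher at an unadjusted p under 0.05. These are 9.26% and 0.926%, beside 4.01% lower and 3.09% higher over all genes tested, and were not recounted without OGT-sufficient replicate 3. *Ttn* had the lowest log2 fold change of the 118, and *Ahnak* the 5th lowest. Between them lay *AI414108* at -1.30, *Tln2*, a talin that links integrins to actin, at -1.25, and *Bsn*, a scaffold of the presynaptic zone, at -1.08 (-0.54 without OGT-sufficient replicate 3). These 3 had mean levels of 2.98, 3.19 and 4.27 CPM, against 594 CPM for *Ahnak* over the 6 samples. At the other end were *Ksr2* at 1.06, *Tenm4* at 0.62, *Neb* at 0.48 (0.74 without it), *Ryr3* at 0.47 and *Arhgap32* at 0.46 (0.24 without it). Without OGT-sufficient replicate 3, *Ttn* and *Ahnak* had the lowest and the 3rd lowest values of the class. Correcting for the length and GC content of transcripts moved *Ttn* to -1.02 (adjusted p = 0.238 by edgeR's quasi-likelihood test), which ended its call, and *Ahnak* to -0.92. *Ttn* was itself among the 10893 genes of that fit, with a leverage (its pull on its own fitted value) of 0.140. The transcripts nearest to it in length were those of *D10Wsu102e* (123.2 kb) and *Kcnq1ot1* (93.1 kb), so the correction rests on few genes there. How much of its fall goes with length was not tested. Fitted without the 10 genes, a setting chosen after seeing the data, the correction gave -1.24 (adjusted p = 0.186) for *Ttn* and -0.96 for *Ahnak*.

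**Figure D5:**
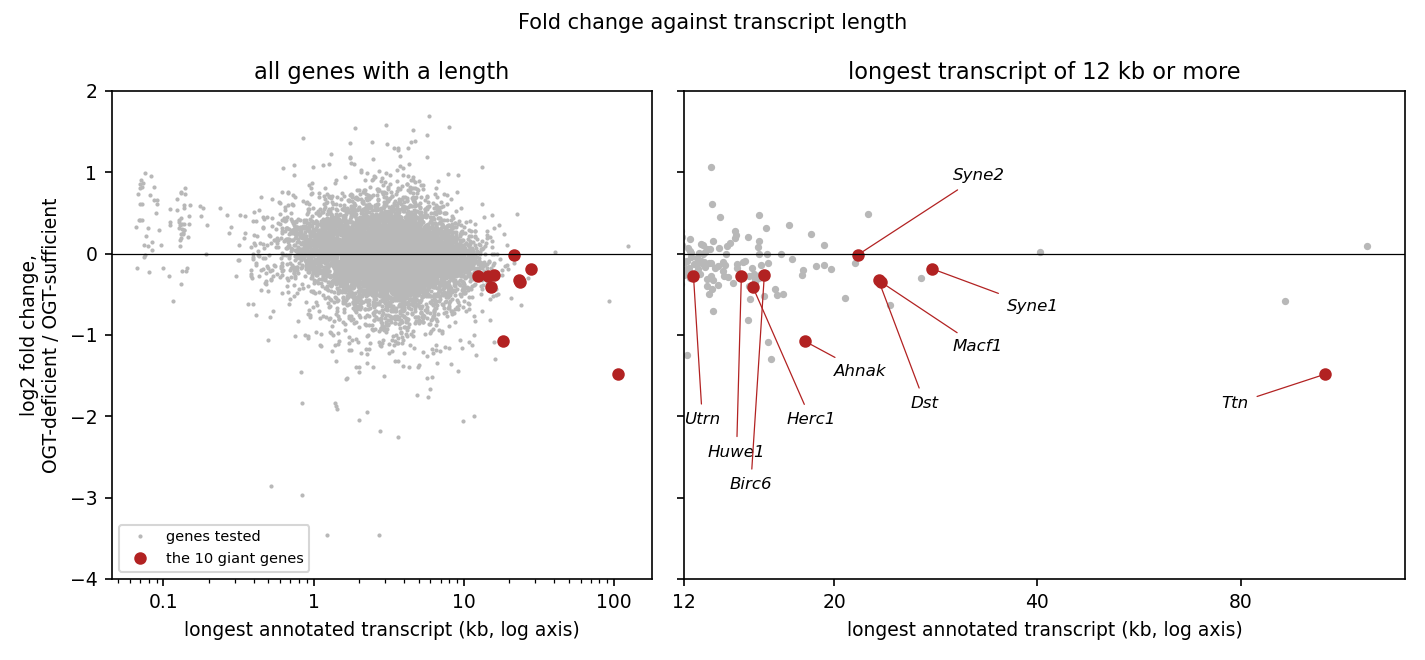
Log2 fold change (OGT-deficient over OGT-sufficient) against the longest annotated transcript on a log axis; each grey point is 1 tested gene, the left panel shows the 10895 with a length and the right panel those with 12 kb or more. The controls lie in the cloud of other long genes between -0.41 and -0.01, and *Ttn* and *Ahnak* lie at -1.48 and -1.08, the lowest and the 5th lowest of the right panel.

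A long transcript can also gather more stray reads. Olfactory receptor genes, which Treg cells are not known to use, had 0.137 counts per kb of exon in OGT-sufficient replicate 3 and 0.0131 to 0.0288 in the other samples. At that rate the exons of *Ttn* would gather 16.0 counts in OGT-sufficient replicate 3, 3.84% of its count there and the largest share in any sample, and those of *Ahnak* at most 0.103% of its count. With this level subtracted from every gene the log2 fold changes were -1.48 and -1.08, the same as without the subtraction.

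*Ttn* and *Ahnak* differ in build. The largest exon of *Ahnak* has 17.5 kb and makes up 96.7% of its longest transcript. *Ttn* holds an exon of 17.1 kb, or 16.0% of its transcript, among 347. In the longest transcripts of the controls, the largest exon was that of *Macf1*, at 5.33 kb. Exons of other transcripts were not examined. In their longest transcripts, 53 other tested genes had an exon of 10 kb or more. Their median log2 fold change was -0.11, and 0.0026 without OGT-sufficient replicate 3. With all samples, 6 of them (11.3%) were lower and 0 higher at an unadjusted p under 0.05, beside 4.01% and 3.09% of all genes tested. They were not recounted without that replicate.

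The coding exon of *Ahnak* is also repetitive, so that a 50-base read, the length used here, can match several places within the gene. Of all 50-base words of its longest transcript, 21.3% occurred more than once in it, against 0.71% for *Ttn* and 0 for the 8 controls. No 50-base word of *Ahnak* and 0.198% of those of *Ttn* also occurred, on either strand, in the transcripts of another gene. *Herc1*, *Dst* and *Birc6* shared 5.12%, 4.46% and 3.01%. Genes annotated on the other strand share 1012, 1493 and 611 exon bases with these controls in turn. Their shared words therefore need not be copies from elsewhere in the genome. The most repeated word of each is shown to let the units be seen, read from the GENCODE M21 transcripts. That of *Ahnak*, at bases 8046 to 8095 of the transcript, occurs 6 times in it, and that of *Ttn*, at bases 35253 to 35302, occurs 2 times.
*Ahnak* repeated word: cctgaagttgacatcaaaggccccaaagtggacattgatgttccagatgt
*Ttn* repeated word: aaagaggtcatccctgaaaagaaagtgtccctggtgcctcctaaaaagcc

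Since *Ttn* and *Ahnak* were lower together, the 250 bases before their start sites are shown (RefSeq, GRCm38.p6, each 5′ to 3′ on the strand of its gene), with matches to TATAA or to the GC box GGGCGG, on either strand, in capitals. The window of *Ttn* is chr2:76982548-76982797 on the minus strand, and that of *Ahnak* is chr19:8989034-8989283 on the plus strand. The first has 1 match to TATAA, 28 bases before the start, and none to the GC box, with 50% G and C and 4 CpG. The window of *Ahnak* has no TATAA and 3 GC boxes, with 66.4% G and C and 18 CpG, so the windows have neither motif in common. These motifs were chosen after the sequences were seen, and do not overlap each other. Of the 32851 windows of this length in the table, 22.8% hold TATAA and 32.7% the GC box. The STAT motif TTCNNNGAA was in neither window, and in 7.02% of all windows. All 10 genes matched the table, with 13 windows, of which 3 hold TATAA, 7 the GC box and 1, that of *Huwe1*, the STAT motif. No match says only that these letters are not in this window.
*Ttn* promoter: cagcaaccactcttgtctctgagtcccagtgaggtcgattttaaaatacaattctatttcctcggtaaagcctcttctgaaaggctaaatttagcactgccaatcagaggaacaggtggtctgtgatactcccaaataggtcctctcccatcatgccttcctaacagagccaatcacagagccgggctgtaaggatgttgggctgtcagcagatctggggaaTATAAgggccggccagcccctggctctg
*Ahnak* promoter: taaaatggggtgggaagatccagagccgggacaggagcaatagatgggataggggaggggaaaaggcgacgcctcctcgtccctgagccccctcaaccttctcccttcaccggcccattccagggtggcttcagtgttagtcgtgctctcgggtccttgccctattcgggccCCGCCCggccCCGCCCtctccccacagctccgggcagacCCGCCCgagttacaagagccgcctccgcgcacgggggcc

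Other components of the structures that these giant proteins belong to were taken from lists. The counts of each list at an unadjusted p under 0.05 stand beside 4.01% lower and 3.09% higher over all genes tested. Of 36 further genes of the sarcomere and muscle, 8 were measured well enough to be tested, and at an unadjusted p under 0.05 0 were lower and 1 was higher, with a median log2 fold change of -0.04 that turned to 0.24 without OGT-sufficient replicate 3. *Neb*, which encodes nebulin of the thin filament, had 160, 204 and 291 counts against 304, 238 and 401, and the calpain gene *Capn3* a log2 fold change of -0.28 (-0.43 without that library). *Actn2*, whose product anchors actin and titin at the Z-disc, went the other way from *Ttn*, with 6, 6 and 14 counts against 25, 28 and 28 and a log2 difference of 1.58 ± 0.37 (standard error, adjusted p = 0.348 by edgeR's quasi-likelihood test). Of the genes of muscle fibres, singled out after their values were seen, *Ckm*, *Myh1* and *Myh2* had no count in 5 of the 6 samples and at most 6 in OGT-sufficient replicate 3. *Acta1* had 1, 1 and 10 counts in OGT-sufficient samples and none in OGT-deficient ones, and the myosin gene *Myh4* had 6, 1 and 8 against 1, 0 and 0. Others had counts in both groups: *Mylpf*, a myosin light chain gene of fast fibres, had 16, 6 and 18 against 20, 17 and 11, and the troponin gene *Tnnt3* had 7, 4 and 17 against 9, 4 and 4. The summed level of the 36 genes was 106 to 187 CPM in OGT-sufficient and 114 to 171 CPM in OGT-deficient samples. Most of this was *Neb* and *Capn3*, with means of 57.9 and 21.2 CPM in OGT-sufficient and 80.9 and 17.4 CPM in OGT-deficient samples. The sum therefore says little of the genes of muscle fibres. The part of muscle RNA in the level of *Ttn* was not tested.

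Of 15 listed partners of AHNAK, 10 were tested, 1 was lower and 0 were higher at an unadjusted p under 0.05, and the median log2 fold change was 0.12, or 0.049 without OGT-sufficient replicate 3. *S100a10*, whose product forms with annexin 2 the complex that binds AHNAK, had 679, 738 and 452 counts against 711, 664 and 489, and *Anxa2* had 322, 278 and 202 against 193, 238 and 218, with log2 fold changes of -0.06 (-0.24 without that library) and -0.36; both were singled out for this role after their values were seen. The annexin gene *Anxa6* and the phospholipase gene *Plcg1*, the highest of the list, were at 0.16 and -0.10, and at 0.051 and 0.048 without it. The lower one was *Anxa1*, at -1.53, which rested on 71 counts in OGT-sufficient replicate 3 against 10 to 17 in all others and was -0.41 without it.

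Partners and relatives of the controls were counted in the same way. Of 11 tested genes of plakins and microtubule ends, 0 were lower and 1 was higher at an unadjusted p under 0.05, with a median log2 fold change of -0.09, or -0.048 without OGT-sufficient replicate 3. In the values that follow, those without that library stand in parentheses where it moved a gene by over 1.5 times. The higher one was *Mapre1*, which encodes a protein of growing microtubule ends, at 0.28, and the plakin gene *Plec* and the dynein gene *Dync1h1* were at 0.08 and -0.13 (-0.048). Of 12 tested genes of the LINC complex and nuclear lamina, the partners of nesprins, 1 was lower and 0 were higher (median -0.0032, without the library -0.00092). This was *Lmnb1*, which encodes lamin B1, at -0.23, while the nesprin-binding *Sun2* was at 0.20 and the lamin B receptor gene *Lbr* at -0.13. Of 6 tested genes of the dystrophin complex, 1 was lower and 0 were higher (median -0.08, without the library -0.22). This was the syntrophin gene *Sntb2* at -0.65, while *Dag1*, which encodes dystroglycan, was at 0.11 (0.032) and the dystrobrevin gene *Dtnb* at -0.15 (-0.23). Of 20 tested large ubiquitin ligases, 2 were lower and 0 were higher (median -0.07, without the library 0.031), among them *Nedd4* at -0.99 (-0.56), while the highest, *Trip12* and *Mycbp2*, were at 0.02 and -0.25 (0.030). Of 47 further tested giant genes, 4 were lower and 0 were higher (median -0.20, and -0.00049 without OGT-sufficient replicate 3). These were *Lrba* at -0.42, *Nbeal1* at -0.52, *Itpr3* at -0.44 (-0.16) and *Cenpf* at -0.43 (-0.22), while the highest, *Flna* and *Dock2*, which act on the actin cytoskeleton, were at -0.09 (-0.17) and -0.05 (0.026). None of the genes of these 7 lists passed an FDR of 0.1.

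The levels of other genes that followed the same course over the 6 samples were found by the root mean square difference between centred log2 levels (CPM + 0.5), which describes likeness only and rests on the same 6 samples. Nearest to *Ttn* were *Il18rap* (0.148), a receptor chain for interleukin-18, the chemokine receptor gene *Cxcr6* (0.153), *1110028F11Rik* (0.189), the chemokine receptor gene *Ccr2* (0.215) and *AI414108* (0.218). *Il18rap* went from 15.0 ± 0.472 to 4.45 ± 0.608 CPM and *Cxcr6* from 10.4 ± 1.71 to 3.93 ± 0.516 CPM (SD, n = 3 each). Among those nearest to *Ahnak* were *Angptl2* (0.136), the nuclear receptor gene *Rora* (0.137), the cytotoxic granule gene *Nkg7* (0.139) and *Lxn* (0.149). *Rora* went from 57.5 ± 9.22 to 27.0 ± 3.94 CPM (SD, n = 3 each). *Ahnak* was the 8th nearest gene to *Ttn*, at 0.259, and *Ttn* the 39th nearest to *Ahnak*. Apart from *Ttn* and *Ahnak* themselves, *AI414108* alone of the genes named here as nearest has a transcript of 12 kb or more.

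Markers of Treg cells were present in every sample. They summed to 1989 to 2954 CPM in OGT-sufficient and 2696 to 2931 CPM in OGT-deficient samples, with the lowest sum in OGT-sufficient replicate 3. Of 7 Treg identity genes, 0 were lower and 1, *Tnfrsf18* at 0.57 (0.31 without OGT-sufficient replicate 3), was higher at an unadjusted p under 0.05, and *Cd4* and *Ikzf2*, the highest, were at 0.12 (0.020 without it) and -0.26. The median of the list was 0.20, and 0.098 without that library. Markers of other cells were present too, and their part in the levels of the giant genes was not tested unless stated. Macrophage markers summed to 1705 to 3655 CPM in OGT-sufficient and 1289 to 5296 CPM in OGT-deficient samples (10 of 10 tested, 0 lower and 0 higher, median log2 fold change 0.39, and 0.095 without OGT-sufficient replicate 3), led by *Vcam1* and *Csf1r*. With their level as a covariate, *Ttn* and *Ahnak* were at -1.47 and -1.07. Neutrophil markers summed to 20.7 to 312.5 CPM in OGT-sufficient and 13.9 to 18.6 CPM in OGT-deficient samples, and 4 of 4 tested, *Ngp*, *S100a9*, *Ltf* and *Mpo*, were lower, with a median log2 fold change of -3.16 that was -1.13 without OGT-sufficient replicate 3. B-cell markers summed to 85.0 to 307.8 CPM against 86.4 to 142.6 CPM (6 tested, 1 lower, *Cd79b*, and 0 higher, median -0.81, and 0.022 without that library, with *Ms4a1* the highest). Erythroid markers summed to 216.8 to 845.8 CPM against 217.9 to 480.5 CPM (5 tested, 0 lower and 0 higher, median -0.62, and 0.13 without that library, led by *Slc4a1* and *Alas2*). The highest sums of the neutrophil, B-cell and erythroid markers were all those of OGT-sufficient replicate 3. Markers of fibroblasts and endothelium summed to 165.3 to 190.3 CPM against 154.4 to 217.7 CPM (3 of 11 tested, 0 lower and 0 higher, median 0.32, and 0.24 without that library, led by *Pecam1* and *Cdh5*), and *Ccl19* had no count in any sample.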

How the data were processed

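RNA of 6 samples of YFP+ Treg cells was sequenced as 50-base read pairs. The submitters' processing notes name Trimmomatic 0.33, FastQC, Bowtie2 2.2.4.0, featureCounts, edgeR and the mm10 build, whereas the paper names Cuffquant for quantification, so how the numbers were made is open. Bowtie2 alone does not split a read over an intron, and how reads over exon junctions or with several matches were handled is not given in the sources used here, nor is the strand setting. The authors deposited 1 table of whole numbers per gene symbol and sample, treated here as counts without normalization. The deposited table also holds the p-value, FDR, fold change and group means of the authors' own comparison, which were not used.

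Groups were taken from the labels. Counts were analysed with edgeR 4.0.16 in R 4.3.3 (beside DESeq2 1.42.0 and limma 3.58.1) and Python 3.11.15, with edgeR's quasi-likelihood test, TMM scaling, a filter at a minimum count of 10 and no replicate block. Standard errors were obtained from each log2 fold change and its F statistic. The fit was tested on simulated data. Scaled libraries put 3 counts at 0.756 to 0.805 CPM. Lengths, exons and overlaps came from GENCODE M21, matched by symbol for 23383 of 24420 genes and by RefSeq synonym for 670, with 367 unmatched. Replicates are separate samples by their labels. No 2 were the same library: between replicates of a group, chi-square over its degrees of freedom was 3.31 to 22.0. For 3 mice against 3 the smallest two-sided p of an exact permutation test is 0.1.

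Named genes are the 10 members, *Ogt*, *Rn45s*, of each of 14 lists those with an unadjusted p under 0.05 and the 2 highest in CPM, the 5 nearest to *Ttn* and to *Ahnak*, and the 5 lowest and 5 highest among transcripts of 12 kb or more; *S100a10*, *Anxa2* and the muscle fibre genes were added after their values were seen. Some genes that this rule names are not reported here. The members and lists were chosen with earlier results of these data known. Alternatives were DESeq2, the exact test, other scalings and filters, the replicate block, leaving out each mouse, a correction for length and GC content, subtraction of a uniform background and, added after seeing the data, the length correction fitted without the 10 genes, the macrophage level as a covariate and *Rn45s* left out of library sizes.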

Additional observations from a re-analysis of the deposited data

How the results depend on the processing

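*Ttn* and *Ahnak* were lower in OGT-deficient Treg cells under all 18 alternatives, but their calls at an FDR of 0.1 were not stable. For *Ttn* the call was lost with the length and GC correction (-1.02), with that correction fitted without the 10 genes (-1.24) and when OGT-deficient replicate 2 or 3 was left out (leave-one-out values -1.53 to -1.40). Equal replicate numbers do not pair these mice (correlations of -0.281, 0.00726 and -0.118), and with the replicate block *Ttn* was at -1.48 (adjusted p = 0.185), 0 genes were called over all tested and 0 of the 10 were. *Ahnak* passed with DESeq2 (-1.06), the exact test (-1.08), no filter (-1.03), the macrophage covariate (-1.07) and without OGT-sufficient replicate 3 (leave-one-out values -1.16 to -0.94). Under the length and GC correction *Ttn* differed from the controls by -0.93 and the median of long transcripts was 0.020. Genes called numbered 38 with DESeq2, 80 by the exact test, 131 where no filter was used, 31 with the macrophage covariate, 1 with either length correction and 0 to 9 when a mouse was left out, against 3. Of the 10 genes, 2 were called with DESeq2, the exact test, no filter or the macrophage covariate, 0 with either length correction and 0 to 2 when a mouse was left out. At an unadjusted p under 0.05, 219 genes were lower with DESeq2 and 205 to 521 when a mouse was left out, and 215 were higher by library size only and 610 without a filter. Leaving out a mouse gave -0.56 to 0.12 for *Macf1*, -0.36 to 0.14 for *Syne1* and -0.19 to 0.23 for *Syne2*. Among controls, the sign turned for *Macf1* without OGT-sufficient replicate 3 (0.12), for *Syne1* there (0.14) and with the length corrections (0.12 and 0.047), and for *Syne2* with DESeq2 size factors (0.0059), no filter (0.038), either length correction (0.19 and 0.14) and without OGT-sufficient replicate 1 (0.17), OGT-sufficient replicate 3 (0.05) or OGT-deficient replicate 1 (0.23). The cause was not tested. With 0 genes called under the block, 679 had an unadjusted p under 0.05 in edgeR, and 462 and 742 without OGT-deficient replicates 2 and 3.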
